A study of Mus musculus with 6 samples.

Results

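The MYC, MAX and MXD network was taken as 10 genes found by their symbols among the 23420 rows of the count table: Myc and Mycn, Max, the MXD genes Mxd1, Mxd3, Mxd4 and Mxi1, Mnt, Mlx and Mga. All 10 were present, and 9 passed a minimum of 10 counts summed over the 6 libraries, the exception being Mycn. B lymphocytes had been isolated from the spleen of 3 Ahr+/+ and 3 Ahr-/- mice, both on the C57Bl/6J background, the latter without the aryl hydrocarbon receptor (AhR), a ligand-activated transcription factor. Cells of both genotypes were cultured for 8 h with anti-IgM (10 μg/ml), which engages the B-cell receptor, and IL-4 (20 ng/ml), and FICZ (250 nM), an endogenous AhR ligand, was present during the last 4 h in every culture. The methods of the study name its Ahr-/- line as B6.129-Ahr tm1Bra/J, whereas the labels give the genotype without the allele, and mice were age- and gender-matched adults. Since all 6 cultures were activated and received FICZ, the comparison describes differences between the genotypes in activated cultures with ligand. It holds no resting or ligand-free cells.

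MYC proteins form heterodimers with MAX, bind the E-box CACGTG and activate genes for growth, ribosome production and division. The MXD proteins and MNT compete for MAX and for the same sites, where they recruit SIN3 and histone deacetylases and repress transcription, so that the balance between MYC and its antagonists sets the output. MLX is a MAX-like partner of MXD1, MXD4, MNT and the glucose-sensing MONDO proteins, and MGA pairs with MAX within a noncanonical polycomb complex. In B cells Myc is an immediate target of B-cell receptor signalling and is needed for the cell growth that precedes division.

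The libraries held 22095096 to 53648787 counts assigned to genes, the shallowest and the deepest both being Ahr-/-. Values are given as normalised read counts, that is, counts scaled by TMM to the mean effective library size, with the mean ± SD of 3 mice. Cyp1a1, the prototypical AhR target, was 5246 ± 242 in Ahr+/+ and 5.36 ± 2.20 in Ahr-/- cells. Ahr itself was counted at 12681, 12892 and 13953 in Ahr+/+ and at 8856, 8949 and 9717 in Ahr-/- libraries, so transcript from the targeted locus remained, and the gene-level count is no check of the deleted part. A gene was called when its Benjamini-Hochberg adjusted p in edgeR's quasi-likelihood test was under 0.05. Of 13682 genes tested, 17.9% were called, 9.79% as higher and 8.13% as lower in Ahr-/- cells, and for 33.5% the 3 values of one genotype did not overlap those of the other. Without Ahr-/- replicate 3 the number of called genes rose from 2453 to 2601, and without any other library it was 1664 to 2196.

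Loss of AhR was accompanied by lower transcript levels of 2 MYC antagonists, Mxd1 and Mnt, while Myc, Max, Mlx and Mga did not pass the test. These 2 were 22.2% of the 9 tested members, beside 17.9% of all genes called in either direction and 8.13% called lower, and the share rests on 2 genes. In 5 of the 9 members the genotypes were separate, 55.6% against 33.5% of all genes, and for 3 of these, Myc, Max and Mlx, the difference was not called. The median log2 fold change of the members (Ahr-/- against Ahr+/+) was −0.16, beside 0.0022 over all genes tested, and 7 members had a negative and 2 a positive value. This median moved to −0.039 without Ahr-/- replicate 3, −0.067 without Ahr+/+ replicate 2 and −0.083 without Ahr+/+ replicate 3. The exact permutation test over mice cannot go below p = 0.1 with 3 against 3, and every member without overlap stood at that value.

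**Figure D1:**
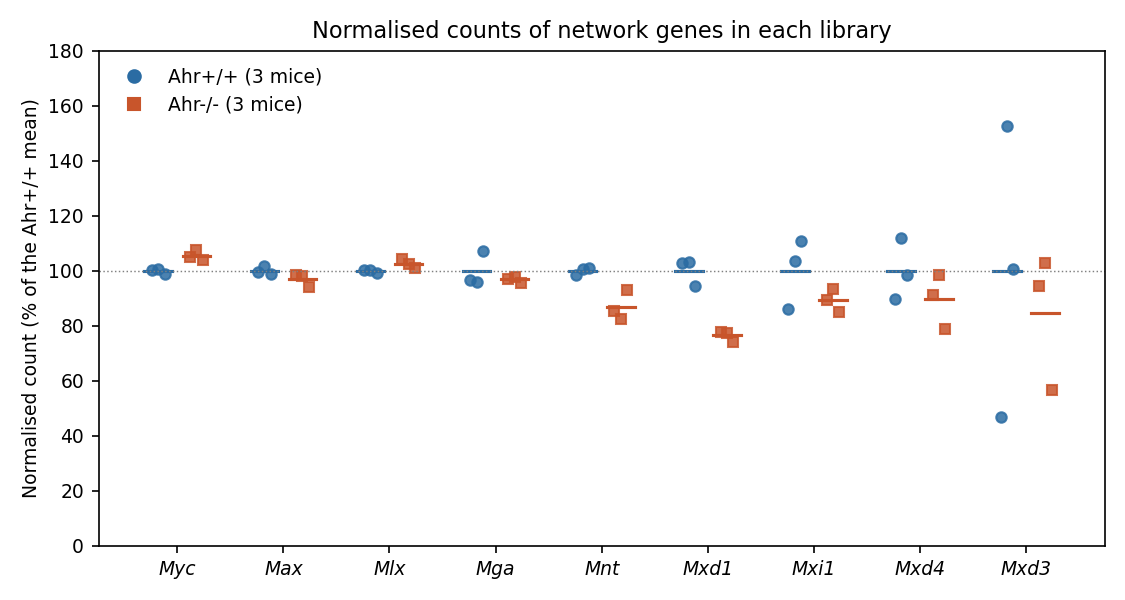
The y axis gives the normalised read count in percent of the Ahr+/+ mean of the same gene, from 0, and the x axis the 9 tested genes. Circles are Ahr+/+ and squares Ahr-/- mice, bars are the means of 3, and the dotted line is the Ahr+/+ mean. Mxd1 and Mnt were lower in all 3 Ahr-/- mice than in any Ahr+/+ mouse, whereas the values of Mga, Mxi1, Mxd4 and Mxd3 overlap between genotypes.

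Myc was by far the most abundant transcript of the network. Compared per kilobase of annotated exon and per 1e6 counts, a scale that allows genes to be set against each other, its level was 209 ± 2.09 in Ahr+/+ and 221 ± 4.03 in Ahr-/- cells (SD, n = 3), above 98.7% of 12795 tested genes with an exon length. It made up 70.3% of the summed level of the 10 genes in Ahr+/+ and 72.2% in Ahr-/- cells. Max followed at 31.4 ± 0.456 and 30.4 ± 0.773, then Mlx at 21.3 ± 0.124 and 21.8 ± 0.370, Mga at 17.2 ± 1.09 and 16.7 ± 0.188, and Mnt at 15.7 ± 0.213 and 13.6 ± 0.860. The MXD genes were far lower, with Mxd1 at 1.44 ± 0.071 and 1.10 ± 0.028, Mxi1 at 0.797 ± 0.101 and 0.712 ± 0.034, Mxd4 at 0.571 ± 0.064 and 0.511 ± 0.057, and Mxd3 at 0.159 ± 0.084 and 0.135 ± 0.039. The order was the same in both genotypes, and no pair of neighbours in it overlapped between mice of 1 genotype. Thus Mnt accounted for most antagonist transcript, and the MXD genes together stood at 2.96 ± 0.22 in Ahr+/+ and 2.46 ± 0.15 in Ahr-/- cells on this scale. Exon lengths are the union over all annotated transcripts, which understates a gene that uses few of its exons.

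**Figure D2:**
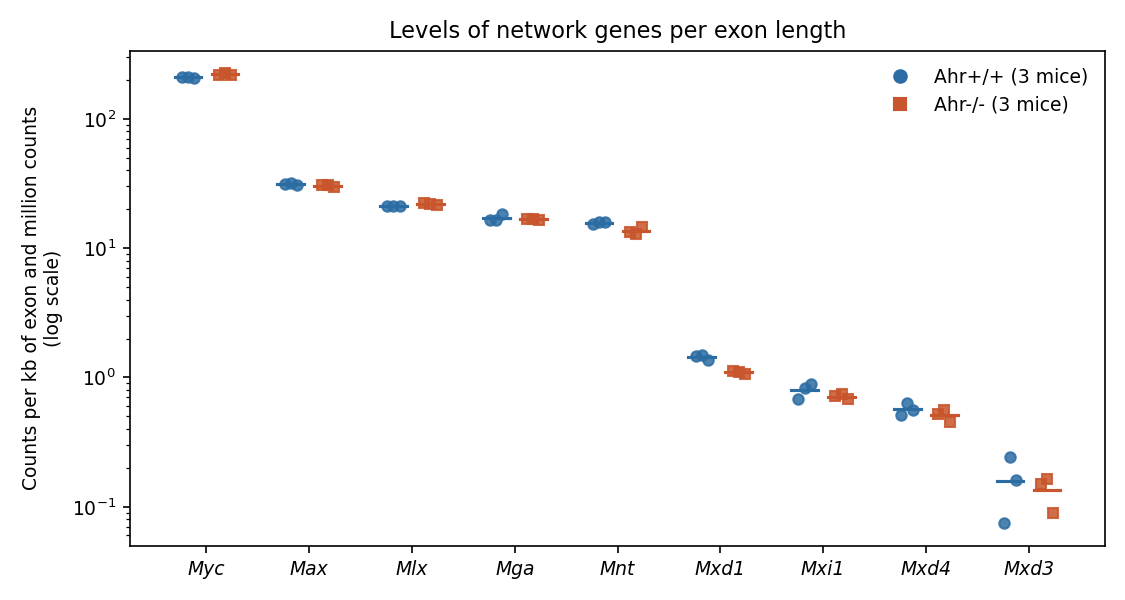
The y axis gives the level as counts per kilobase of exon and 1e6 counts on a log scale, and the x axis the 9 tested genes, ordered by their level in Ahr+/+ cells. Circles are Ahr+/+ and squares Ahr-/- mice, and bars are the means of 3. Myc stands highest at 209 in Ahr+/+ cells and Mxd3 lowest among the tested genes at 0.159, and the order is shared by both genotypes.

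Myc (chr15:61985391-61990374, plus strand; all gene positions are from GENCODE M21 on GRCm38, the sequence of mm10) had normalised counts of 21919, 22008 and 21593 in Ahr+/+ and of 22913, 23510 and 22699 in Ahr-/- mice. All 3 Ahr-/- values lay above all Ahr+/+ values, but by little, 21840 ± 218 against 23041 ± 420. The difference was 5.50%, with a 95% interval of the fold change from 1.005 to 1.108, and was not called (log2 fold change 0.08, SE 0.032, edgeR adjusted p = 0.13). It passed the threshold only when libraries were scaled by their totals alone (log2 fold change 0.10, adjusted p = 0.040).

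Mycn (chr12:12936093-12941914, minus strand), the MYC protein of neural and early progenitor cells, was at the floor of detection. Its raw counts were 0, 2 and 1 in Ahr+/+ and 2, 1 and 2 in Ahr-/- libraries, at or under the 3 counts that a library at 0 would still allow, and no fold change was taken. Pvt1, a noncoding gene beside Myc that is often amplified with it, was 984 ± 63.9 in Ahr+/+ and 1048 ± 40.0 in Ahr-/- cells and overlapped between genotypes (log2 fold change 0.09, adjusted p = 0.36). Left-out libraries moved Pvt1 between 0.034 and 0.13, and its adjusted p was 0.23 or more in every alternative.

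Max (chr12:76937269-76962201, minus strand), the partner shared by MYC, the MXD proteins, MNT and MGA, had normalised counts of 4310, 4410 and 4294 in Ahr+/+ and of 4272, 4254 and 4078 in Ahr-/- mice. The Ahr-/- values were the lower ones without overlap, yet the means of 4338 ± 63.1 and 4201 ± 107 differed by a log2 fold change of −0.05 (SE 0.038, 95% interval −0.13 to 0.04, adjusted p = 0.46). Max lies on the chromosome of Ahr, 41.4 Mb from it, and Mycn 22.6 Mb from it. Mlx (chr11:101087277-101092207, plus strand) was counted at 1639, 1638 and 1622 in Ahr+/+ and at 1704, 1673 and 1648 in Ahr-/- mice. Here the Ahr-/- values were the higher ones without overlap, with 1633 ± 9.56 against 1675 ± 28.4 and a log2 fold change of 0.04 (SE 0.039, 95% interval −0.05 to 0.12, adjusted p = 0.61).

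Mxd1 (chr6:86647042-86669161, minus strand) encodes MAD1, an antagonist that rises as cells leave the cycle and differentiate. It fell without AhR: the normalised counts were 401, 402 and 368 in Ahr+/+ and 304, 302 and 290 in Ahr-/- mice, with every Ahr-/- value below every Ahr+/+ value. The mean went from 391 ± 19.3 to 299 ± 7.55 and the fitted level dropped by 23.7% (log2 fold change −0.39, SE 0.077, 95% interval −0.56 to −0.22, edgeR adjusted p = 0.0033). The values rest on 177 to 425 raw counts per library. The call held in all 14 alternative settings and left-out libraries, with log2 fold changes from −0.43 to −0.37 and adjusted p from 0.0015 to 0.016.

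Mnt (chr11:74830920-74845725, plus strand), the antagonist that is present in cycling and resting cells alike, fell as well. It was counted at 2753, 2809 and 2825 in Ahr+/+ and at 2382, 2302 and 2598 in Ahr-/- mice, and the genotypes did not overlap, although Ahr-/- replicate 3 lay closer to the Ahr+/+ mice than the other 2 did. The mean went from 2795 ± 37.9 to 2427 ± 153 and the fitted level dropped by 13.1% (log2 fold change −0.20, SE 0.047, 95% interval −0.31 to −0.10, edgeR adjusted p = 0.0089). The call was lost without Ahr-/- replicate 2, the lowest value (log2 fold change −0.16, adjusted p = 0.066), and held in the other 13 settings, with adjusted p from 0.00065 upwards.

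The sequences before the starts of Mxd1 and Mnt, the called members, are shown because AhR with its partner ARNT binds the core GCGTG of the dioxin response element (DRE) and because MYC and its antagonists bind the E-box. Both are the 250 bases before the start in RefSeq's promoter table for GRCm38.p6, written 5′ to 3′ on the strand of the gene, at chr6:86669160-86669409 (minus strand) for Mxd1 and chr11:74830674-74830923 (plus strand) for Mnt. Capitals mark GCGTG, its reverse complement CACGC, and CACGTG.
Mxd1: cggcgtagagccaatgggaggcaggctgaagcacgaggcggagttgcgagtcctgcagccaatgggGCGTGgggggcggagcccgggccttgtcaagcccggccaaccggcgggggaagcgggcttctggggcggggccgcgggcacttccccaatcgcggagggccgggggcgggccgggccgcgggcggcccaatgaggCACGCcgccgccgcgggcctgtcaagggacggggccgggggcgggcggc
Mnt: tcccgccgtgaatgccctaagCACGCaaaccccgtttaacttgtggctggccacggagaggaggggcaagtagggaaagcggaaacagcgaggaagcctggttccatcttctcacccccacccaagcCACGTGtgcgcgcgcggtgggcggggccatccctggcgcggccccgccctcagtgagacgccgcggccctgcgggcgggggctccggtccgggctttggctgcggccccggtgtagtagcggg
The Mxd1 sequence held the DRE core 184 and 49 bases before the start and no E-box. In Mnt the DRE core stood 229 and the E-box 123 bases before the start, and the motifs did not overlap. Both motifs were searched on both strands of the 300 bases from 250 before to 50 after the start. Promoters were matched for 9 members, Mxi1 with 3 entries, and Myc was not matched. The DRE core was in 4 of the 9 genes, Max, Mxd1, Mnt and Mga, and in 4 of their 11 promoter entries, beside 32.4% of all 32851 promoters in the table. These letters are short and common, and a match is a description of the sequence only, since no binding was measured.

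The E-box was in 4 of the 9 members, and in 4 of the 11 entries, beside 7.15% of all promoters, and these were Max, Mxd4, Mnt and Mlx, that is, network genes that carry in their own promoters the letters their products bind. The 3 not printed above are given with 20 bases on either side, on the gene's strand, with CACGTG in capitals, at chr12:76962226-76962271 (minus), chr5:34187904-34187949 (minus) and chr11:101087230-101087275 (plus).
Max: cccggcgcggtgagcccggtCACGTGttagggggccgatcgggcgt
Mxd4: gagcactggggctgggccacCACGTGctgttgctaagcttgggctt
Mlx: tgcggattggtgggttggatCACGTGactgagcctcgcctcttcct
The Max E-box (chr12:76962246-76962251) spans the RefSeq start, beginning 3 bases before it. The GENCODE gene of Max begins at 76962201 on the minus strand, so the E-box lies wholly before that start. The E-box of Mxd4 lies 219 and that of Mlx 40 bases before the RefSeq start. Of the 4 genes with an E-box, Mnt alone was called, and Mxd1 was called without one. Max and Mnt held both motifs, and Mycn, Mxd3 and Mxi1 held neither in this window.

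The other MXD genes did not pass the test. Mxi1 (chr19:53310518-53375810, plus strand), which encodes the antagonist MXI1, was counted at 180, 216 and 231 in Ahr+/+ and at 187, 195 and 178 in Ahr-/- mice (log2 fold change −0.16, SE 0.12, 95% interval −0.41 to 0.09, adjusted p = 0.41). Mxd4 (chr5:34173883-34187720, minus strand) was counted at 167, 208 and 183 in Ahr+/+ and at 170, 183 and 147 in Ahr-/- mice (log2 fold change −0.16, SE 0.13, 95% interval −0.43 to 0.12, adjusted p = 0.46). In both genes the genotypes overlapped, and the intervals include the value found for Mnt. Left-out libraries moved Mxi1 to −0.083 without Ahr+/+ replicate 3 and −0.26 without Ahr+/+ replicate 1, and Mxd4 to −0.065 without Ahr-/- replicate 3, −0.067 without Ahr+/+ replicate 2 and −0.25 without Ahr-/- replicate 2, with adjusted p of 0.17 or more throughout. Mxd3 (chr13:55325168-55329823, minus strand), the MXD gene of dividing cells, rested on 7 to 22 raw counts per library and scattered within genotypes, at 6.80, 22.1 and 14.6 in Ahr+/+ and 13.7, 14.9 and 8.21 in Ahr-/- mice. Its interval ran from a log2 fold change of −1.17 to 0.71 (adjusted p = 0.77), which covers changes of that size in either direction. All 5 antagonists thus had a negative log2 fold change, 2 of them called, and the sign of Mxd3 turned without Ahr+/+ replicate 2 (0.22) or Ahr-/- replicate 3 (0.0065).

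Mga (chr2:119897228-119969581, plus strand), a large protein with a T-box beside its MAX-binding domain, had normalised counts of 9811, 9756 and 10901 in Ahr+/+ and of 9855, 9931 and 9712 in Ahr-/- mice. The Ahr-/- mice lay among the lower Ahr+/+ values, and Ahr+/+ replicate 3 was the highest of the 6. The log2 fold change was −0.05 (SE 0.045, 95% interval −0.14 to 0.05, adjusted p = 0.54), and 0.0061 without that replicate. Exons of Mxd3 share 105 bases with Prelid1, those of Mxd4 514 with Gm42846, those of Mxi1 194 with Gm10197 and those of Mlx 385 with Psmc3ip, each on the opposite strand. The libraries were stranded, but whether the counting used strand is not given in the sources used here, and these 4 genes are uncertain to that extent. Myc, Mycn, Max, Mxd1, Mnt and Mga share no exon bases with an annotated neighbour.

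**Figure D3:**
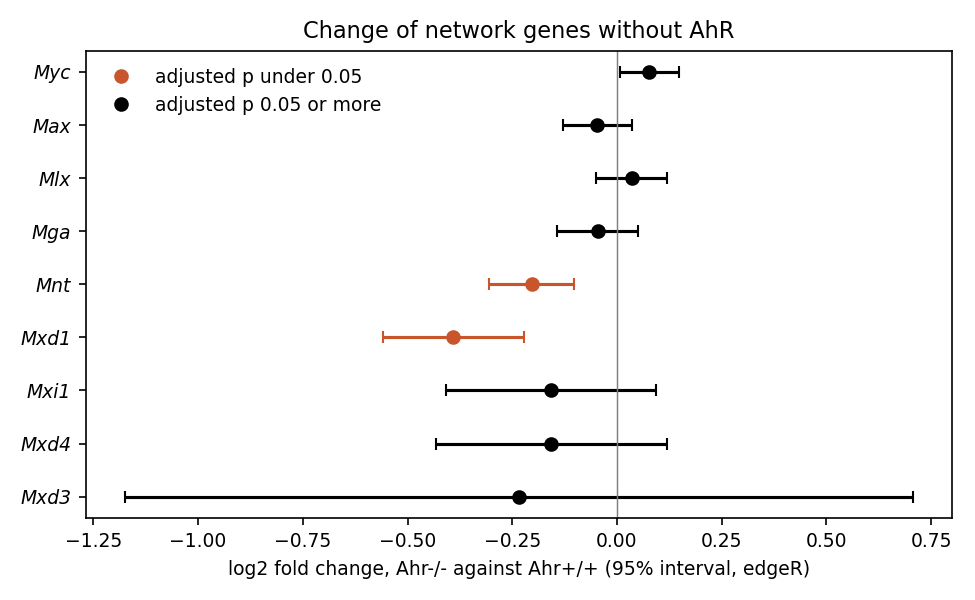
The x axis gives the log2 fold change of each gene in Ahr-/- against Ahr+/+ cells from edgeR, with its 95% interval, and the rows are the 9 tested genes. Mnt at −0.20 and Mxd1 at −0.39, in orange, are the called genes, and the interval of Mxd3 is the widest, from −1.17 to 0.71.

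Since MYC and its antagonists compete for MAX, their levels were set against each other within each library, which removes the scaling between libraries. The ratio of Myc to Mxd1 per length was 142, 142 and 153 in Ahr+/+ and 196, 203 and 204 in Ahr-/- mice. Myc to Mnt was 13.6, 13.3 and 13.02 in Ahr+/+ and 16.4, 17.4 and 14.9 in Ahr-/- mice. In both ratios the Ahr-/- mice were above all Ahr+/+ mice, as follows from a Myc that was slightly higher and antagonists that were lower. Myc to Max was 6.74, 6.61 and 6.66 in Ahr+/+ and 7.10, 7.32 and 7.37 in Ahr-/- mice. The summed level of the 5 antagonists was 18.2, 19.0 and 18.8 in Ahr+/+ and 15.9, 15.5 and 16.9 in Ahr-/- mice, and Myc stood at 11.2 ± 0.283 times this sum in Ahr+/+ and at 13.7 ± 0.819 times in Ahr-/- mice. Mnt against the summed MXD genes overlapped, at 5.32 ± 0.341 and 5.58 ± 0.720. These ratios were formed from members whose values had been seen and are given without a test, and they describe transcripts, not proteins.

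**Figure D4:**
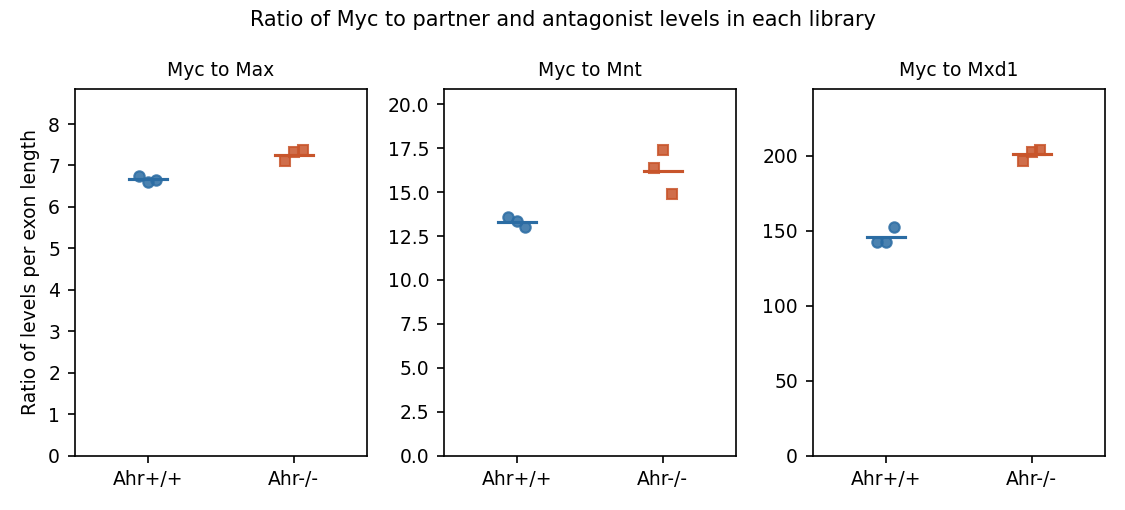
The 3 panels show the ratio of Myc to Max, to Mnt and to Mxd1, as levels per exon length, on y axes from 0, with the genotypes on the x axis. Points are mice and bars are the means of 3. Myc to Mxd1 lies between 142 and 153 in Ahr+/+ and between 196 and 204 in Ahr-/- mice.

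Partners, regulators and textbook targets of the network were taken from lists of known genes and read in the same fit. Among other MYC and MLX relatives, Mycl, the third MYC protein, had raw counts of 3, 3 and 7 in Ahr+/+ and of 9, 13 and 21 in Ahr-/- libraries. Its normalised counts of 4.60 ± 2.83 and 14.6 ± 5.01 did not overlap, and it was called higher (log2 fold change 1.64, SE 0.49, adjusted p = 0.038). The call on so few counts was lost with DESeq2 (adjusted p = 0.095), and without Ahr+/+ replicate 1 (0.13), Ahr+/+ replicate 2 (0.12), Ahr-/- replicate 1 (0.071) or Ahr-/- replicate 3 (0.12). Mlxip, which encodes the MLX partner MONDOA, was 7688 ± 109.6 and 7106 ± 370 (log2 fold change −0.11, adjusted p = 0.090), and was called without Ahr-/- replicate 3 (−0.16, adjusted p = 0.0090). Its target Txnip, an inhibitor of glucose uptake, was 4176 ± 372 and 3914 ± 109 (−0.09, adjusted p = 0.31). Txnip was called without Ahr+/+ replicate 3 (−0.16, adjusted p = 0.042) and moved to −0.039 without Ahr+/+ replicate 1 (adjusted p = 0.72). Of the 4 tested genes in this list 1 was called, beside 17.9% of all genes, and 2 had a positive and 2 a negative log2 fold change. Their median of 0.28 is the midpoint between Txnip and Arrdc4 (0.66, adjusted p = 0.37). Arrdc4 rested on 8 to 30 raw counts per library and overlapped between genotypes.

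None of 13 MYC cofactors, which the network recruits to chromatin, was called by edgeR, beside 17.9% of all genes tested, with 3 at an unadjusted p under 0.05, 1 called by DESeq2, 2 by edgeR with DESeq2's size factors and a median log2 fold change of −0.04. Hcfc1, a chromatin-bound MYC partner, was 17663 ± 898 and 17393 ± 529 (−0.02, adjusted p = 0.78, with the sign turned to 0.0033 under library totals alone), and Ep400, of the TIP60 complex, 17548 ± 529 and 16393 ± 575 (−0.10, adjusted p = 0.11). Of 10 SIN3 and HDAC corepressors that serve the MXD proteins and MNT, 1 was lower, beside 8.13% of all genes, and the median was −0.05, with 2 called by DESeq2 or under library totals alone. This was Rbbp7, a histone-binding subunit, which fell from 18680 ± 602 to 16483 ± 369 (log2 fold change −0.18, SE 0.036, adjusted p = 0.0039). Ncor1, a corepressor scaffold, was 13253 ± 544 and 12719 ± 432 (−0.06, adjusted p = 0.38).

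Of 9 genes of the MGA complex, 2 were higher and none was lower, beside 9.79% and 8.13% of all genes, and the median was 0.03. E2f6, the E2F protein that brings this complex to DNA, rose from 1662, 1601 and 1749 in Ahr+/+ to 2181, 2075 and 2065 in Ahr-/- mice (log2 fold change 0.33, SE 0.045, adjusted p = 0.00019). Its dimer partner Tfdp1, which also serves the other E2F proteins, rose from 4691 ± 302 to 5243 ± 189 (log2 fold change 0.16, adjusted p = 0.041). The Tfdp1 call was lost without Ahr+/+ replicate 1 (adjusted p = 0.16), Ahr+/+ replicate 3 (0.091), Ahr-/- replicate 2 (0.15) or Ahr-/- replicate 3 (0.065), whereas that of E2f6 held in all 14 settings. Cbx3, a heterochromatin protein, was 5401 ± 77.3 and 4947 ± 220 (−0.13, adjusted p = 0.053), and was called lower with DESeq2 (adjusted p = 0.026) and without Ahr-/- replicate 3 (−0.17, adjusted p = 0.0092).

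Among 11 genes that act on the stability of the MYC protein, 1 was higher and 2 were lower, where 9.79% and 8.13% of all genes were, and the median was −0.01. Btrc, the F-box protein β-TrCP that is known to stabilise MYC, fell by 45.9%, from 1912, 1925 and 1904 in Ahr+/+ to 1085, 991 and 1045 in Ahr-/- mice (log2 fold change −0.89, SE 0.045, adjusted p = 3.5e-08), and this was the largest difference of the list. Fbxw7, the F-box protein that directs phosphorylated MYC to degradation, rose from 3021, 2938 and 3032 to 3196, 3495 and 3834 (log2 fold change 0.23, SE 0.056, adjusted p = 0.012). Set, an inhibitor of the phosphatase PP2A, fell from 48378 ± 377 to 44316 ± 887 (log2 fold change −0.13, adjusted p = 0.014), and the call was lost without Ahr+/+ replicate 1 (adjusted p = 0.054) or Ahr-/- replicate 2 (0.11). The ubiquitin ligase gene Huwe1 was 41308 ± 2765 and 41148 ± 931 (−0.01, adjusted p = 0.95), and its sign turned under library totals alone (0.020).

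Of 35 textbook targets that MYC activates, 2 were higher and 5 were lower, where 9.79% and 8.13% of all genes were, 28 were not called and the median log2 fold change was −0.01. Their summed normalised counts, of which Ncl and Ptma made up the largest parts, were 1034220 to 1049610 in Ahr+/+ and 976213 to 1013970 in Ahr-/- mice, lower without overlap. With DESeq2's size factors the split was 1 higher and 5 lower, and with library totals alone, which moved all genes upwards (1621 higher and 919 lower over all genes, beside 1340 and 1113), it was 5 higher and 3 lower. Cdc25a, a phosphatase that opens the G1 to S transition, rose from 1123 ± 20.7 to 1414 ± 99.9 (log2 fold change 0.34, SE 0.055, adjusted p = 0.00096). Nme2, a nucleoside diphosphate kinase, stood at the threshold (0.11, adjusted p = 0.0497), was not called with DESeq2's size factors (adjusted p = 0.058), and leaving out any library except Ahr-/- replicate 3 removed its call (adjusted p from 0.069 to 0.24). It shares 573 exon bases with a read-through gene on its own strand. Of the lower ones Ncl, nucleolin, fell from 189009 ± 2952 to 169521 ± 7143 (−0.16, adjusted p = 0.0083), and was not called without Ahr-/- replicate 2 (adjusted p = 0.066). Nop58, a snoRNP protein, fell from 24865 ± 348 to 22075 ± 692 (−0.17, adjusted p = 0.0040), and Odc1, ornithine decarboxylase, from 33125 ± 457 to 30105 ± 681 (−0.14, adjusted p = 0.011). Shmt2 (−0.12, adjusted p = 0.024) and Eif4a1 (−0.10, adjusted p = 0.046), outside the rule for named genes, were the other 2. Ptma, a chromatin protein, was 123781 ± 2080 and 114054 ± 10255 (−0.12, adjusted p = 0.15), and was called without Ahr-/- replicate 3 (−0.19, adjusted p = 0.0023). Left-out libraries moved it as far the other way as −0.063, and its adjusted p reached 0.43 among the alternatives.

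Of 8 genes that MYC represses, 2 were lower and none was higher, beside 8.13% and 9.79% of all genes, and the median was −0.21. Thbs1, a matrix protein gene named here after its values were seen, had the most positive value of the list (1.01, adjusted p = 0.19) at 4.11 ± 1.69 and 8.57 ± 2.69 normalised counts. Gadd45a, a stress-induced growth arrest gene that is also under p53, fell from 555, 484 and 493 in Ahr+/+ to 94.4, 107 and 100.3 in Ahr-/- mice (log2 fold change −2.33, SE 0.097, adjusted p = 4.9e-09). Ndrg1, a gene of differentiation and hypoxia, fell from 279, 295 and 301 to 163, 195 and 192 (log2 fold change −0.65, SE 0.097, adjusted p = 0.00045). Both are also targets of regulators other than MYC. Fth1, the ferritin heavy chain gene, was 11837 ± 526 and 12554 ± 385 (0.08, adjusted p = 0.20), and Cdkn1b, which encodes p27Kip1, 1070 ± 38.4 and 961 ± 42.1 (−0.16, adjusted p = 0.055), called without Ahr-/- replicate 1 (−0.19, adjusted p = 0.038) and with DESeq2's size factors (−0.16, adjusted p = 0.047). Exons of Rbbp7, Btrc, Gadd45a and Ndrg1 share 174, 235, 337 and 419 bases with a gene on the opposite strand (Ndrg1 also 137 with another), and those of Txnip, Mlxip, Pvt1 and Ncor1 share 606, 267, 109 and 82, with the same uncertainty as above.

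**Figure D5:**
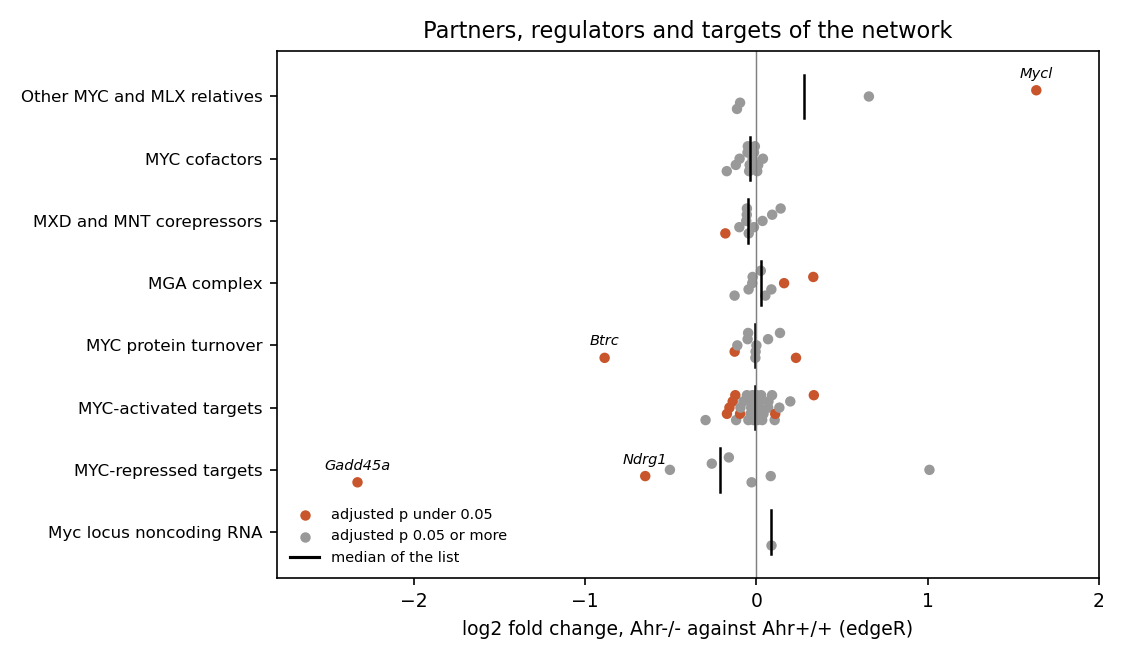
The x axis gives the log2 fold change of each gene in Ahr-/- against Ahr+/+ cells from edgeR, and the rows are the lists of partners, regulators and targets. Points are genes, orange where the adjusted p was under 0.05 and grey otherwise, and vertical bars are the medians of the lists. Most points lie near 0, and Gadd45a at −2.33, Mycl at 1.64, Thbs1 at 1.01 (not called) and Btrc at −0.89 lie farthest from it.

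Markers of cell types were examined in the same libraries, since in bulk samples fewer cells of a type and less RNA per cell cannot be told apart. The counts of called markers below stand beside 9.79% of all genes called higher and 8.13% called lower. The B-cell markers were abundant in every library, with summed normalised counts of 301464 to 318967 in Ahr+/+ and 319501 to 360384 in Ahr-/- mice. Cd74, which was not called, made up the largest part, with 236741 ± 7873 in Ahr+/+ and 254200 ± 19503 in Ahr-/- mice (log2 fold change 0.10, edgeR adjusted p = 0.19). Of the 7 markers 4 were higher without AhR, Pax5 (log2 fold change 0.65), Cd79b (0.35), Cd79a (0.26) and Ms4a1 (0.26). Of 4 plasma cell markers 2 were lower, Jchain (−0.92) and Prdm1 (−0.64), and 1 was higher, Xbp1 (0.25), with sums of 14210 to 20211 and 13375 to 15019. Of 8 plasmacytoid dendritic cell markers 6 were higher and 1 lower, with a median log2 fold change of 1.31. Siglech (log2 fold change 2.23), Klk1 (2.19), Runx2 (1.47), Cox6a2 (1.33), Ly6d (1.29) and Ccr9 (0.51) rose, while Tcf4, which B cells also express, fell (−0.68) and, as the most abundant of the list, held the sums at 11099 to 12063 and 11535 to 12874. Of 7 conventional dendritic cell markers 4 were higher, Cd209a (2.52), Clec9a (1.86), Clec10a (1.83) and Itgax (1.06), and 1 was lower, Zbtb46 (−0.40), with a median of 1.06. Zbtb46 was the most abundant of these, and the sums were 810 to 933 and 872 to 1057. Macrophage and monocyte markers summed to 774 to 1016 and 218 to 678, with Adgre1 lower (−3.60) and Cd14 higher (1.64) of 5. Among 6 T-cell markers 1 was lower, of 5 NK-cell markers 2 were higher, and no neutrophil or erythroid marker was called or had an unadjusted p under 0.05, Hba-a1 and Hba-a2 being at 0 in every library. The part of such cells in the differences of Mxd1, Mnt and the other genes was not tested.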

How the data were processed

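Polyadenylated RNA of splenic B cells (3 mice per genotype, 1 library each, so that p-values measure the spread between mice) was sequenced by the authors. The submitters' processing notes name TopHat2, HTSeq, DESeq and mm10. The raw counts per gene that the authors deposited were used; their normalised table and their comparisons (fold changes, p-values) were not. Counts were fitted with edgeR 4.0.16 (R 4.3.3; TMM, at least 10 counts over the 6 libraries, genotype as the only term, glmQLFit and glmQLFTest, prior count 0.125, Benjamini-Hochberg over 13682 genes), and the fit was tested on simulated data. At the depths obtained 3 counts, the limit that a count of 0 allows, equal 0.0555 to 0.134 CPM (counting error only). Positions and exon lengths came from GENCODE M21 and promoters from RefSeq. Named were the members, Ahr and Cyp1a1, and per list up to 3 genes called in each direction by size of change and the 2 with the highest mean count, with older symbols matched through RefSeq synonyms. Outside this rule, the called cell type markers of the main lists, Cd74, Arrdc4, Thbs1, Shmt2 and Eif4a1 were named after their values were seen. The members and lists were chosen with earlier results of these data known. The alternatives were other scalings (DESeq2's size factors, library totals), other filters (none, or 10 counts in 3 libraries), DESeq2 1.42.0, a replicate block, another prior count (2), a threshold of 0.01 and leaving out each library.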

Additional observations from a re-analysis of the deposited data

How the results depend on the processing

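The calls of 2 lower members and of no higher member kept their counts in every alternative except library totals alone, where Myc made 1 higher, and without Ahr-/- replicate 2, where Mnt was lost and 1 remained lower. Over all genes 1473 were called at an adjusted p under 0.01, and 1664 to 2601 with a library left out. With DESeq2's size factors 2 MYC cofactors and 1 higher activated target were called. Under library totals alone 2 corepressors, 5 higher and 3 lower activated targets were called, and Hcfc1 (0.0033) and Huwe1 (0.020) turned positive. Without a filter 1 cofactor and 4 higher activated targets were called, and with at least 10 counts in at least 3 libraries 0 relatives and 1 cofactor. The DESeq2 Wald test called 0 relatives, 1 cofactor and 2 corepressors. At an adjusted p under 0.01, 0 relatives, 1 gene of the MGA complex, 1 of MYC turnover and 3 activated targets (1 higher, 2 lower) were called. With a library left out, the counts ran from 0 to 2 for relatives, 0 to 1 for cofactors, 1 to 2 for the MGA complex, 3 to 8 for activated targets (1 to 3 higher, 2 to 5 lower) and 1 to 2 for lower members. Left-out libraries turned the sign of Mxd3 (−0.59 to 0.22; 0.0065 without Ahr-/- replicate 3), Mga (−0.075 to 0.0061), Hcfc1 (−0.064 to 0.0015; 0.00070 without Ahr-/- replicate 1) and Huwe1 (−0.052 to 0.044; 0.0093 without Ahr-/- replicate 1). The cause of these differences was not tested. Scaling moved the median log2 fold change of genes with a mean count of at least 100 from −0.0037 to 0.021 under library totals. Replicate numbers are shared between the genotypes, but the deviations of same-numbered mice were not correlated in every pair (r = −0.14 for replicates 1, 0.25 for replicates 2 and −0.19 for replicates 3, over 9692 genes), and the numbers were not taken as pairs. With the replicate number as a block 2303 genes and 1 cofactor were called, with 0 members higher and 2 lower. Depth limits Mycn, Mxd3 and Mycl.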
